A study of Mus musculus with 2 samples.

Results

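Non-cycling cancer cells of subcutaneous SO ovarian tumors were taken from 2 single-cell RNA sequencing libraries, 1 from WT and 1 from TSK mice. A cell was kept if it had at least 200 genes, at least 500 unique molecular identifiers (UMIs, each counting 1 captured RNA molecule) and at most 10% of its UMIs in mitochondrial genes, with no upper limit, and if its barcode did not occur in both libraries. Members were chosen by their own UMI counts of 11 genes, so that the values of these genes are a description of the choice. A kept cell was a cancer cell if it had at least 3 UMIs of Lgals7 and Krt18 together, at least 1 of Cdkn2a, none of Ptprc or Csf1r and under 3 of Dcn, Lum and Pdgfra together. It was non-cycling if it also had under 3 UMIs of Mki67, Top2a and Cdk1 together. Of 4403 cells kept, 203 met the rule: 32 of 1442 in WT and 171 of 2961 in TSK. A further 15 WT and 352 TSK cancer cells were cycling.

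The hosts were C57BL/6 females of 6 to 8 weeks. TSK (tight skin) mice carry a partial duplication within Fbn1, the gene of the matrix protein fibrillin-1, and have thickened, fibrotic connective tissue. SO cells are a mouse line that lacks p53 and was made tumorigenic with Hras and Myc. The same line was placed in both hosts, so that the Fbn1 mutation is a property of the host and not of the cancer cells. The tumors of each genotype were pooled before the cells were separated. With 1 pooled library per genotype, animals cannot be told apart and genotype and library cannot be separated. No test between genotypes is therefore given. Intervals are exact 95% intervals (binomial for shares, conditional for ratios of UMI counts) and cover counting error only.

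Cancer cells outside the dividing phases still carry much of the traffic between a tumor and its host. They display peptides on class I molecules of the major histocompatibility complex (MHC), which cytotoxic T cells read, and interferon raises the genes of this machinery. They also take up and buffer metals through metallothioneins, respond to stress with immediate early genes such as Fos, and secrete matrix proteins such as osteopontin (Spp1). A cell that has left the cycle loses the transcripts of DNA replication and mitosis, while the oncogene programmes behind growth may go on.

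The metallothionein genes Mt1 and Mt2 were higher in TSK than in WT non-cycling cancer cells, and B2m, the invariant chain of class I molecules, was lower. Their promoters are shown as those of 3 main genes in which a script found a textbook motif of metal or interferon response. The promoters of H2-K1, H2-D1, Tap1 and Psmb9, also lower in TSK, were searched as well and held no match to the interferon motif. Only exact matches were counted, so an interferon element with other letters would be missed. Each runs from 250 bases before to 50 after the start of the RefSeq transcript (GRCm38.p6, plus strand). Mt1 is at chr8:94178839-94179138, Mt2 at chr8:94172368-94172667 and B2m at chr2:122147437-122147736. Capitals mark the core of the metal response element (TGCACNC or TGCGCNC, on either strand) in Mt1 and Mt2 and the interferon response motif in B2m (GAAA, any 2 bases and again GAAA, on either strand).
Mt1: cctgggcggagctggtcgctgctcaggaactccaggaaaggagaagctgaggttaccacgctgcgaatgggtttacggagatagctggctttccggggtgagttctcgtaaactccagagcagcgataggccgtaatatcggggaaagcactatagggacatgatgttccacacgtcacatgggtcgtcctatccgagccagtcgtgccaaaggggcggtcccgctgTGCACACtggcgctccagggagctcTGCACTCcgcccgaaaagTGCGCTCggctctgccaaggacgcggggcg
Mt2: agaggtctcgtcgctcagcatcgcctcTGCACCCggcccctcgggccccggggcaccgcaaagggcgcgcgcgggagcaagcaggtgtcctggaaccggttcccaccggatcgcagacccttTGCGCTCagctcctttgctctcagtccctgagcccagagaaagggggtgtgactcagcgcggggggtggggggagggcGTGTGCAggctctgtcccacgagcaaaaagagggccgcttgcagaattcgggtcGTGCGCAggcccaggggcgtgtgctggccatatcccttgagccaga
B2m: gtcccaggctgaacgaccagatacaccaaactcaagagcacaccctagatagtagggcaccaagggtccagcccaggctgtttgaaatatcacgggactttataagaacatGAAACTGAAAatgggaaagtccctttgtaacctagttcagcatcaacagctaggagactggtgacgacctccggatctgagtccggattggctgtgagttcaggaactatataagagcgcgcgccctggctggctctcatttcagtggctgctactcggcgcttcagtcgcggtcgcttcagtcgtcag
The metal response core occurred 3 times in the Mt1 window and 4 times in that of Mt2, and the interferon motif occurred 1 time in that of B2m, 139 bases before the start. The core is common: 25.7% of all 32851 promoters of this length held it. The interferon motif was found in 3.44% of all promoters, in 4 of 18 promoters of MHC class I presentation genes (22.2%) and in 10 of 22 of interferon-stimulated genes (45.5%). A match to these letters is a description of the sequence and not a bound site.

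The label was checked against markers. Spp1, which was not part of the rule, had a UMI in 30 of 32 WT and 162 of 171 TSK non-cycling cells. With every cell thinned to 5000 UMIs, it was found in 96.2% of WT and 95.7% of TSK non-cycling cells, against 23.6% and 58.7% of cells with Ptprc or Csf1r, which are blood-derived cells. H19, an imprinted non-coding RNA on chromosome 7, was no general marker: 4 WT and 44 TSK cells had a UMI, and a single cell held 90.2% of the WT and 43.2% of the TSK UMIs. After thinning, H19 was in 3.85% of WT and 18.1% of TSK cells, against 0.149% and 7.33% of the blood-derived cells. The genes of the rule were abundant by construction, with Lgals7 (galectin-7) at 1540 counts per 1000000 UMIs (CPM) in WT and 1252 in TSK, Krt18 (keratin 18) at 1157 and 506, and Cdkn2a (encoding p16 and p19) at 642 and 640.

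Keratin 18 and galectin-7 did not come with a wider epithelial programme. Of 21 epithelial genes on a list, only Tjp1 and Wt1 reached a mean of 20 CPM, and 13 had no UMI in WT and 11 none in TSK, Cdh1 (E-cadherin) and Krt20 among them. Krt8, the usual partner of keratin 18, had 0 UMIs in WT and was found in 3 TSK cells. Epcam had 1 UMI in WT and 74 in TSK, the latter in 30 cells. Of 11 keratinocyte markers, 7 were at 0 in both libraries, including Krt5, Krt14 and Trp63. The mesenchymal genes Vim (1174 and 1652 CPM), Fn1 (1583 and 1454 CPM) and S100a6 (1955 and 1899 CPM) were high in WT and TSK respectively. Hras and Myc were present at 72.9 and 87.2 CPM in WT and at 85.0 and 125 CPM in TSK, and whether the introduced copies are counted with the cells' own is not given in the sources used here. Trp53 RNA was also present (57.2 and 93.7 CPM), and where the deleted part lies relative to the counted 3′ end is not given in the sources used here.

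Most marker lists of other cell types were lower than in the other cells. The other kept cells are those short of the limit on Lgals7 and Krt18 or of that on Cdkn2a, 1354 in WT and 1981 in TSK. They include the blood-derived cells. Cells with the cancer genes that failed another limit are neither cancer cells nor among the other kept cells. The macrophage list summed to 27.1 CPM in WT and 152 CPM in TSK non-cycling cells, against 3374 and 3903 CPM in the other cells. In TSK, most of this was Pf4, a platelet and macrophage chemokine, and 59.9% of the Pf4 UMIs were in 1 cell. The fibroblast list summed to 629 CPM in WT and 304 CPM in TSK, against 8993 and 7371 CPM in the other cells, mostly from the collagen genes Col1a1, Col1a2 and Col3a1, and its Clec3b was at 0 in TSK. Neutrophil markers gave 4.29 and 4.91 CPM, T and NK markers 1.43 and 1.51 CPM and mast cell markers 0. The endothelial list summed to 18.6 CPM in WT and 83.5 CPM in TSK, against 446 and 314 CPM in the other cells. Its Pecam1, an adhesion receptor of endothelial and blood cells, had 12 UMIs in 6 of 32 WT cells and 161 in 44 of 171 TSK cells (1.83), while Cdh5, the endothelial cadherin, had 0 and 17 UMIs. Mesothelial markers were above their level in the other cells, with 50.0 and 63.9 CPM against 23.6 and 12.2 CPM, mostly from Wt1, while Msln and Lrrn4 were at 0. Skeletal muscle markers were low in both classes, with 11.4 and 18.5 CPM against 5.46 and 20.5 CPM. The limit on Dcn, Lum and Pdgfra failed in 35 of 88 WT cells with the cancer genes (39.8%) and in 403 of 980 TSK cells (41.1%), of which 5 and 42 also had Ptprc or Csf1r. These cells were deep, with medians of 42161 and 35763 UMIs.

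Part of the members were at or near the limits. Of the non-cycling cells, 23 WT and 74 TSK cells had no UMI of the 3 cycling genes, 5 and 63 had 1, and 4 and 34 had 2, just inside the limit. Just outside it, 2 WT and 24 TSK cancer cells had exactly 3. At the other limits, 1 WT and 17 TSK members had exactly 3 UMIs of Lgals7 and Krt18, 4 and 16 had exactly 1 of Cdkn2a, and 5 and 17 had exactly 2 of Dcn, Lum and Pdgfra, while 4 and 17 cells were just outside with exactly 3 of the latter. The members held a median of 21076 UMIs in WT (1744 to 59017) and 14852 in TSK (723 to 67121), and 62.5% and 59.6% of them had more than 10000 UMIs. Cycling cancer cells were deeper, with medians of 53602 and 34318 UMIs.

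Non-cycling cancer cells were a larger share of the TSK library, but a smaller share of its cancer cells. They made up 2.22% (1.52 to 3.12) of the kept WT cells and 5.78% (4.96 to 6.68) of the kept TSK cells, a log2 ratio of 1.38 (0.83 to 1.97). All cancer cells were 3.26% of WT and 17.7% of TSK cells. Within the cancer cells, 68.1% (52.9 to 80.9) were non-cycling in WT and 32.7% (28.7 to 36.9) in TSK, a log2 ratio of -1.06 (-1.61 to -0.47). Leaving out shared barcodes changed this share in WT alone. With them kept, 33 of 58 WT (56.9%) and 171 of 523 TSK cancer cells were non-cycling. The ratio was then -0.80 (-1.34 to -0.22). The order was the same at each depth: 12 of 12 WT against 69 of 107 TSK cells under 10000 UMIs, 8 of 10 against 83 of 185 from 10000 to under 30000 UMIs, and 12 of 25 (48.0%) against 19 of 231 (8.23%) from 30000 UMIs. When each cell was thinned to 2000 UMIs before the rule was applied, nearly all cells fell under the limit of 3 UMIs, 37 of 38 WT (97.4%) and 209 of 263 TSK cancer cells (79.5%), and the log2 ratio was -0.29. At that depth the limit separates few cells. These are shares of captured cells, and the pooled dissociation cannot tell more cancer cells from fewer other cells.

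**Figure D1:**
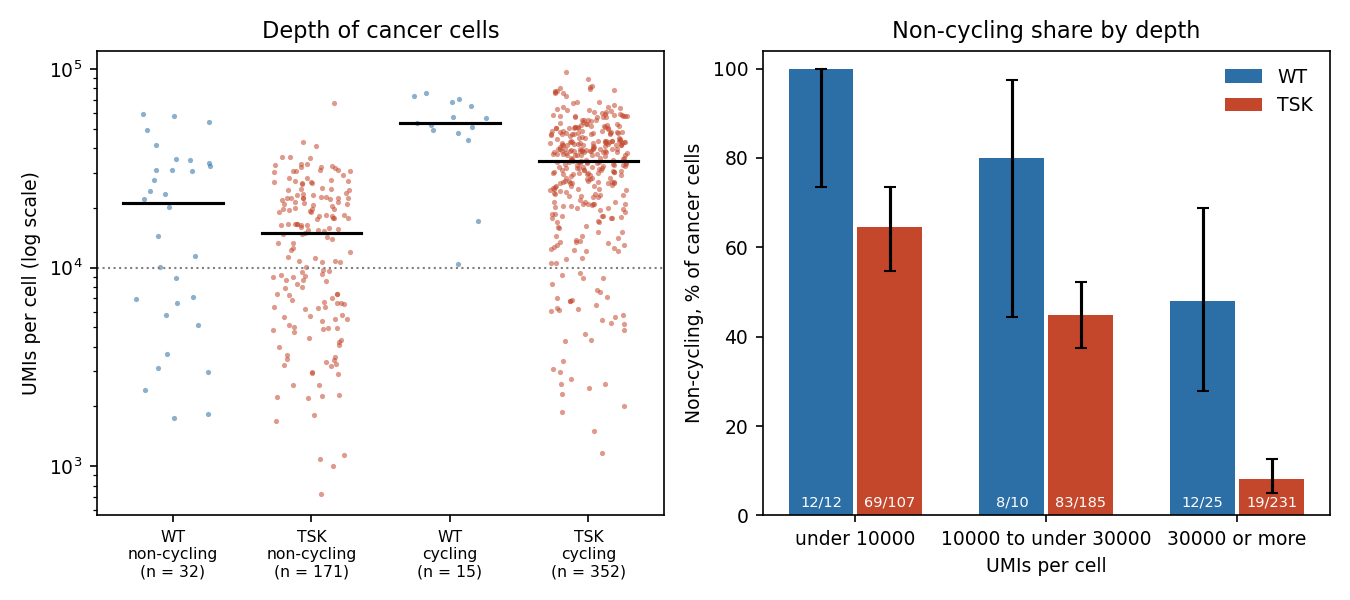
Left, UMIs per cell (log scale) of non-cycling and cycling cancer cells in the WT and TSK libraries, 1 point per cell, with bars at the medians and a dotted line at 10000 UMIs. Right, the percent of cancer cells that were non-cycling by depth, with exact binomial 95% intervals and the cells counted written in the bars; the WT bars stand above the TSK bars at each depth and the WT intervals are wide.

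The split into non-cycling and cycling cells also showed in cell cycle genes that were not used for it. With 5000 UMIs per cell, members had a median of 1 UMI of 22 genes of the G2 and M phases in WT and 1 in TSK, against 7 and 8 in cycling cells. For 22 S phase genes the medians were 2 and 3, against 7 and 9. Of 5786 genes, 138 (2.39%) were at least 2-fold lower in non-cycling than in cycling cells in both libraries, and 32 (0.553%) were at least 2-fold higher. The lower ones were led by the histone genes Hist1h1b (log2 ratios of -5.91 in WT and -4.76 in TSK) and Hist1h2ap (-4.13 and -4.61) and by Ube2c, a ubiquitin-conjugating enzyme of mitotic exit (-4.32 and -3.75). In WT, Hist1h1b had 1 UMI in non-cycling and 68 in cycling cells. Among the higher ones, Dok6, an adaptor of receptor tyrosine kinases, had ratios of 1.90 and 1.67. Cst12, of the cystatin family of protease inhibitors, had ratios of 3.54 and 1.65. Of their WT UMIs in members, 31.8% and 46.3% were in 1 cell. Gm34983, Ifit1 and Tafa2, which ranked above them, had 98.4%, 83.3% and 64.0% of these UMIs in 1 cell. Abcb1a, an efflux pump, had ratios of 1.54 and 1.60, but 89.0% of its WT UMIs were in 1 cell.

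Between the genotypes, 5492 genes outside the rule had a mean of at least 20 CPM in non-cycling cells. At a ratio of 2-fold or more, 236 (4.3%) were higher and 232 (4.22%) lower in TSK, together 8.52%. The median log2 ratio of all genes was 0.14, and scaling by that median changed the split to 145 higher and 297 lower. The WT sums rest on 32 cells and 699877 UMIs and the TSK sums on 171 cells and 2646338 UMIs, so that a single WT cell can set a ratio. The percent of a gene's UMIs in its highest cell is therefore given where it is large.

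**Figure D2:**
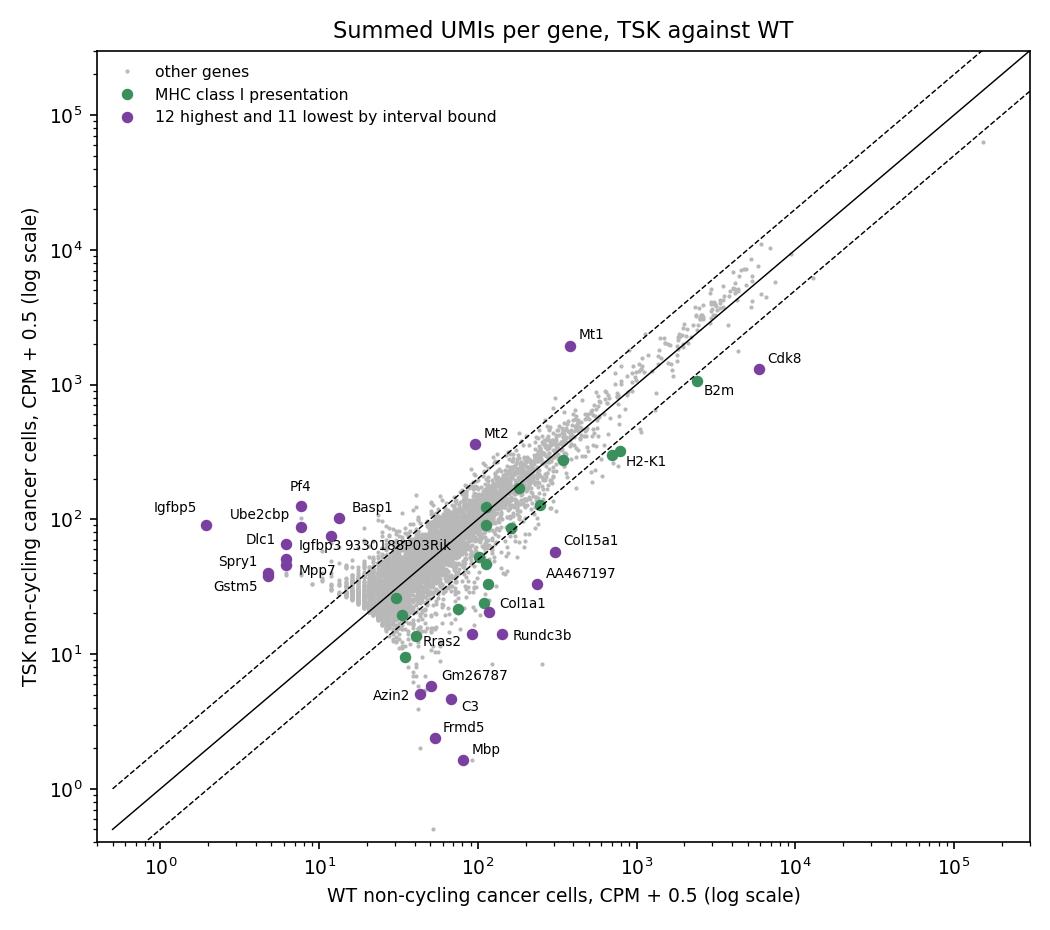
CPM of each gene in WT (x axis) and TSK (y axis) non-cycling cancer cells, both on log scales with 0.5 added, 1 point per gene. Lines mark equality and 2-fold; green points are MHC class I presentation genes, most of them below the line of equality, and purple points are the 12 higher genes and 11 of the 12 lower genes whose ratio intervals lie farthest from 0, with Mt1 the most abundant of the higher ones.

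MHC class I presentation genes were lower in TSK non-cycling cancer cells. Of 19 genes on the list 18 were measured, and none was 2-fold higher and 9 were 2-fold lower, against 4.22% of all genes. Their median log2 ratio was -1.07, against 0.14 for all genes. The summed level was 5708 CPM in WT and 2807 CPM in TSK, a log2 ratio of -1.02 (-1.08 to -0.97). The result was spread over cells. Per 10000 UMIs, WT cells held from 3.3 to 139 UMIs of the list with a median of 50.1, and TSK cells from 0 to 137 with a median of 18.0. The ranges overlapped, and 81.9% of TSK cells were below the WT median. The highest cell held 11.7% of the WT and 4.43% of the TSK UMIs. The ratio was -1.73 in cells under 10000 UMIs, -0.88 from 10000 to under 30000 and -1.19 from 30000.

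The genes span the whole route of class I antigens. B2m (chromosome 2, 122147686 to 122153083, GRCm38) was at 2409 CPM in WT and 1069 CPM in TSK, a log2 ratio of -1.17 (-1.26 to -1.08), with a UMI in 31 of 32 and 148 of 171 cells. Per 10000 UMIs the median cell had 24.1 in WT and 6.21 in TSK. The heavy chain genes H2-K1 (784 and 320 CPM) and H2-D1 (702 and 299 CPM), both on chromosome 17, had ratios of -1.29 (-1.45 to -1.13) and -1.23 (-1.39 to -1.06). The non-classical H2-T23 was at -1.83 and H2-Q4 at -1.60. The peptide transporter genes Tap1 (74.3 and 21.2 CPM) and Tap2 (34.3 and 9.07 CPM) were at -1.81 and -1.92, and Tapbp, which tethers the transporter to empty class I molecules, at -1.28. Psmb9, a subunit of the immunoproteasome that cuts the peptides, had the largest difference of the list, 109 CPM in WT and 23.4 CPM in TSK (-2.21, -2.72 to -1.71). The other immunoproteasome subunits Psmb8 and Psmb10 were at -0.94 and -0.93.

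Genes of the route with general duties were nearer to 0. Pdia3, a folding enzyme of the endoplasmic reticulum, had a ratio of 0.14 (-0.23 to 0.51) and the chaperone Calr one of -0.32 (-0.54 to -0.11). The proteasome activator gene Psme1 was at -0.07 (-0.36 to 0.23). Nlrc5, the activator of class I transcription, was at 30.0 CPM in WT and 25.7 in TSK, with a ratio of -0.22 whose interval runs from -0.95 to 0.56, and its ratios in cycling cells (-1.35) and in the other kept cells (-1.22) were lower.

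The difference was larger in cycling cancer cells and smaller in blood-derived cells. In cycling cells the list summed to 5818 CPM in WT and 1762 CPM in TSK, a ratio of -1.72 (-1.77 to -1.68). The median of its genes there was -2.27, against 0.24 for all genes. In the other kept cells the ratio was -0.78 (-0.79 to -0.77). In cells with Ptprc or Csf1r it was -0.31 (-0.33 to -0.29), with a list median of -0.34. H2-K1 and B2m reached -2.40 and -2.09 in cycling cells. The intervals of the sums do not overlap between these classes, but they hold counting error only, and the differences between classes were not tested over animals.

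**Figure D3:**
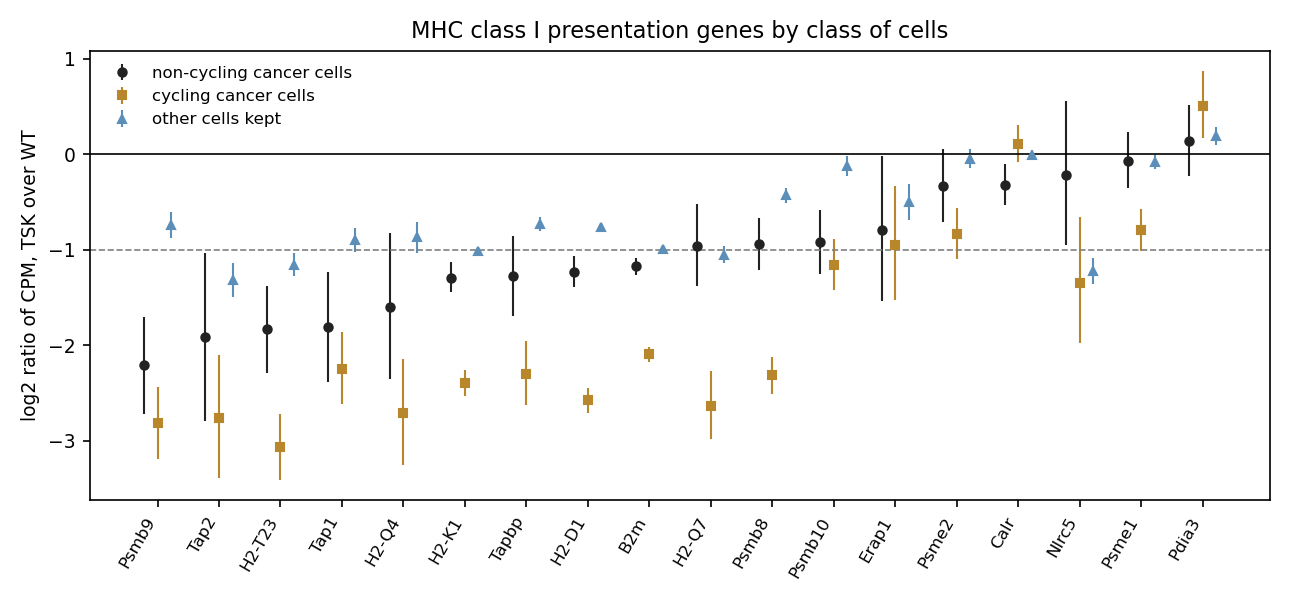
Log2 ratio of CPM (TSK over WT) of 18 MHC class I presentation genes in non-cycling cancer cells (black), cycling cancer cells (gold) and the other kept cells (blue), with 95% counting intervals; the dashed line marks 2-fold lower. Of the gold points 16 lie below the black ones, and most blue points lie above, while Pdia3 is above 0 in each class.

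Interferon-stimulated genes were lower as well, by less. All 22 measured genes of 28 had a ratio below 0. Of them, 6 were 2-fold lower and none 2-fold higher, against 4.22% and 4.3% of all genes. The median was -0.81 and the sum was 3632 CPM in WT and 2145 CPM in TSK, a log2 ratio of -0.76 (-0.83 to -0.69). One WT cell held 29.5% of the list's UMIs, and without the highest cell of each library the ratio of the sums was -0.42 (-0.50 to -0.34). Per 10000 UMIs the medians were 16.0 in WT and 11.4 in TSK, and the ranges, from 0 to 152 and from 0 to 279, overlapped. In cells under 10000 UMIs the ratio was 0.19 (-0.12 to 0.52), against -1.06 from 30000 UMIs. In cycling cells the ratio of the sums was -1.52, with a list median of -1.75 against 0.24 for all genes. In cells with Ptprc or Csf1r the ratio was -0.04 (-0.07 to -0.01).

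Single genes differed in how far they rested on 1 cell. Ifit1, Ifit2, Usp18 and Cxcl10 were 2-fold lower, but 83.3%, 78.1%, 87.5% and 68.7% of their WT UMIs came from the highest cell, and without the highest cells Ifit1 and Usp18 were at 0.68 and 0.31 and Cxcl10 at -0.05. Zbp1, a sensor of nucleic acids that triggers cell death, was at 84.3 CPM in WT and 26.1 CPM in TSK (-1.69, -2.22 to -1.17), with 17.0% of the WT UMIs in the highest cell. The guanylate-binding protein gene Gbp2 was at 129 and 65.4 CPM (-0.98). Ifitm3, a membrane protein that blocks viral entry and the most abundant gene of the list, was at 1699 and 1159 CPM (-0.55, -0.65 to -0.45) with a UMI in 30 and 166 cells.

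Metallothioneins were higher in TSK non-cycling cancer cells. These small cysteine-rich proteins bind zinc and copper and buffer oxidants. Mt1 (chromosome 8, 94179082 to 94180327) had 268 UMIs in 24 of 32 WT cells and 5140 in 147 of 171 TSK cells, 383 against 1942 CPM, a log2 ratio of 2.34 (2.17 to 2.53). Mt2, its neighbour on the same chromosome, was at 95.7 and 362 CPM, a ratio of 1.92 (1.56 to 2.30). Per 10000 UMIs, WT cells held 0 to 30.0 UMIs of both genes with a median of 2.7, and TSK cells 0 to 412 with a median of 12.2, and 8 WT and 22 TSK cells had none. Thus the groups overlapped at the low end, and the TSK cells reached far higher. The ratio of the sums was 2.27 (2.11 to 2.43) and stayed at 2.27 without the highest cell of each library, and it was 1.41, 2.58 and 1.64 in the 3 depth classes. The metal response motif is in both promoters, as shown above, and in 37.4% of the promoters of all measured genes.

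The metallothionein difference was not particular to these cells. The summed level of Mt1 and Mt2 was 560 CPM in WT and 2396 CPM in TSK cells with Ptprc or Csf1r, a ratio of 2.10 (2.05 to 2.15). The ratio in the other kept cells, which include these, was 1.12. In cycling cancer cells the summed ratio was -0.23 (-0.31 to -0.15), but 69.1% of the WT UMIs there came from 1 of 15 cells. Without the highest cell of each library it was 1.31 (1.16 to 1.45). The median cycling cell held 3.6 UMIs of both genes per 10000 in WT and 8.4 in TSK.

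Ftl1 and Hmox1, which act in iron storage and release, were also 2-fold higher. Of 13 measured genes of oxidative stress, iron and metallothionein, 4 were 2-fold higher (4.3% of all genes were) and none lower, with a median of 0.46, and Mt1 and Mt2 were among the 4. The others were Ftl1, the ferritin light chain (1124 CPM in WT and 2370 CPM in TSK, 1.08), and Hmox1, the heme oxygenase that frees iron (14 and 165 UMIs, 1.64, 0.85 to 2.54). Fth1, the ferritin heavy chain, did not reach 2-fold, at 2349 and 3776 CPM (0.68, 0.61 to 0.76). In cycling cells Ftl1 was at -0.44 and Fth1 at 0.03. The antioxidant genes Gpx4 (0.02) and Sod1 (-0.36) were not 2-fold different.

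Part of the immediate early and heat shock genes were higher in TSK non-cycling cells. Of 22 genes 7 were 2-fold higher (Fos, Jund, Atf3, Dnajb1, Hsph1, Klf4 and Klf6) and 2 lower (Socs3 and Hspa1b), against 4.3% and 4.22% of all genes, with a median of 0.79. The sums were 4205 and 6843 CPM, a ratio of 0.70 (0.65 to 0.76), and the median cell held 30.0 UMIs of the list per 10000 in WT and 52.7 in TSK. Fos, a subunit of the transcription factor AP-1, was at 307 and 794 CPM (1.37, 1.17 to 1.58), and its partner Jund at 296 and 667 CPM (1.17). Klf4, a zinc finger factor of stress and differentiation, was at 50.0 and 133 CPM (1.41). Egr1 (0.84) and Jun (0.76) were short of 2-fold. Socs3, a feedback inhibitor of cytokine signals, was at -1.42, with 53.7% of its WT UMIs in 1 cell. In cells under 10000 UMIs the sum ratio was 0.49, and under the study's limit of 10000 UMIs Jund (-0.76), Klf4 (-0.53) and Dnajb1 (-0.29) were lower in TSK. In cycling cells it was 0.31, and in the other cells 0.05. These genes also respond to the dissociation of tissue, and their part in the difference between 2 separately prepared pools was not tested.

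**Figure D4:**
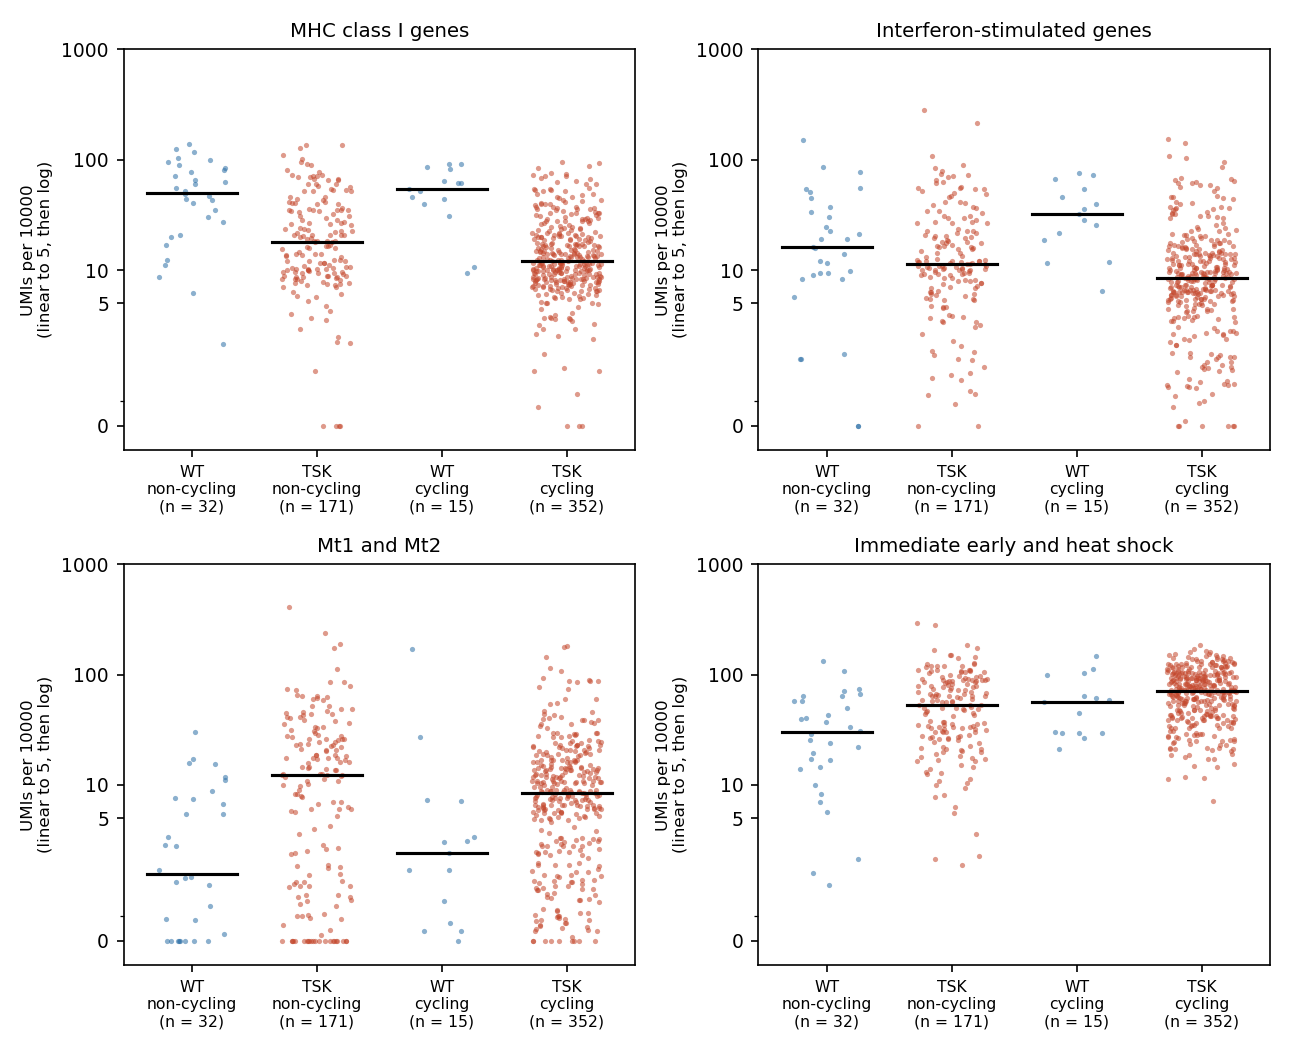
UMIs per 10000 in each cancer cell for 4 gene groups, on an axis that is linear to 5 and then logarithmic; each point is a cell and bars are medians. MHC class I medians are 50.1 in WT and 18.0 in TSK non-cycling cells and Mt1 and Mt2 medians 2.7 and 12.2, and 1 WT cycling cell stands far above the others for Mt1 and Mt2.

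MYC targets, genes of ribosome and nucleotide synthesis, were mostly higher in TSK, though few reached 2-fold. Of 22, 21 had a ratio above 0, and 2 (Mybbp1a at 1.07 and Nolc1 at 1.06, both nucleolar) were 2-fold higher, against 4.3% of all genes, and none lower. The median was 0.51 and the sums were 6255 and 8729 CPM, a ratio of 0.48 (0.43 to 0.53). One WT cell held 19.1% of the list's UMIs, and without the highest cell of each library the ratio was 0.64 (0.59 to 0.69). By depth the ratio was 0.91 under 10000 UMIs, 1.53 from 10000 to under 30000 and 0.45 from 30000. The nucleolar genes Npm1 (1499 and 2217 CPM) and Ncl (1089 and 1573 CPM) were at 0.56 and 0.53. Per 10000 UMIs the median was 52.0 in WT and 82.3 in TSK, and 14.6% of TSK cells were below the WT median. The ratio was 0.74 in cycling cells, 1.27 in the other kept cells and 0.32 (0.28 to 0.35) in cells with Ptprc or Csf1r. The other kept cells held more RNA of a cancer gene in TSK, with Cdkn2a at 6.97 CPM in WT and 154 CPM in TSK. Of 9 measured S phase genes, 4 were 2-fold higher and none lower, against 4.3% and 4.22% of all genes. They were the helicase subunits Mcm3 (1.78) and Mcm6 (1.45) with Hells (1.07) and Slbp (1.02). The S phase sums were 383 CPM in WT and 638 CPM in TSK, below the 1330 and 1909 CPM of cycling cells. A single cell held 24.6% of the WT sum, and without the highest cells the ratio was 0.97 (0.76 to 1.19). The rule gene Top2a was at 7.14 CPM in WT (5 UMIs) and 32.1 CPM in TSK (85 UMIs). Its level in members is capped by the rule and describes the choice of members. The part of members still in the cycle was not tested. The 4 measured genes of the G2 and M phases had a median of -0.17 with none at 2-fold.

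Fibrillar collagen genes were lower in TSK. Of 14 measured matrix genes none was higher and 4 were 2-fold lower (Col1a1, Col1a2, Col3a1 and Loxl2), against 4.22% of all genes, with a median of -0.66 and 2 genes above 0. The ratio of the list's sums, most of which is Spp1, turned with depth: it was -0.64 under 10000 UMIs, -1.05 from 10000 to under 30000 and 0.12 (0.06 to 0.18) from 30000. Col1a1 had 82 UMIs in WT and 53 in the larger TSK sum (-2.55, -3.08 to -2.03), with 40.2% of the WT UMIs in 1 cell, and Col1a2 at 52.9 and 14.7 CPM (-1.84). For Col3a1 (-1.30) 61.2% of the WT UMIs were in 1 cell, and its ratio under the study's limit of 10000 UMIs was 0.16. These 3 collagens are also most of the fibroblast marker list. Of its other members, Postn had 3 UMIs in WT and 1 in TSK, Pi16 had 9 and 11, Clec3b had 1 and 0, and Fap, a surface protease of activated fibroblasts, had 17 and 254 UMIs, 52.4% of the latter in 1 cell. RNA of fibroblasts and of the cancer cells themselves cannot be told apart in these counts. Col15a1, a basement membrane collagen, differed more widely. It was at 307 CPM in 16 of 32 WT cells and at 57.1 CPM in 38 of 171 TSK cells (-2.43, -2.74 to -2.12), with 17.2% of the WT UMIs in the highest cell. In cycling cells it was at 244 and 13.8 CPM (-4.14) and in the other kept cells at a ratio of 0.01. At 5000 UMIs per cell, Col15a1 was in 50.0% of WT and 13.0% of TSK members, against 1.35% and 2% of blood-derived cells.

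Secreted regulators of the matrix varied. Spp1, the most abundant of them, was at 7494 CPM in WT and 5765 CPM in TSK (-0.38, -0.42 to -0.33), while in cycling cells it was at 8105 and 2506 CPM (-1.69). Timp1, an inhibitor of matrix metalloproteinases, was at 1069 and 442 CPM (-1.27, -1.41 to -1.14), with a UMI in 28 of 32 and 137 of 171 cells. It was lower in cycling cells too (-1.74), but higher in the other kept TSK cells (0.74). Mmp2, the gelatinase, was at 216 and 119 CPM (-0.86). Fbn1 RNA was at 64.3 and 34.8 CPM (-0.89, -1.42 to -0.34), against 399 and 430 CPM in the other kept cells, with a UMI in 11 of 32 and 41 of 171 cells and 48.9% of the WT UMIs in 1 cell. Of 14 measured proteases and inhibitors, Serpine2, an inhibitor of serine proteases (1.32), was the only one 2-fold higher and Timp1 the only one lower. Of all genes, 4.3% were higher and 4.22% lower, and the median of the list was -0.30.

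Growth factor genes differed widely in both directions. Igfbp5, which binds insulin-like growth factors, had 1 UMI in WT and 240 in TSK, in 30 cells (5.99, 3.50 to 11.30), and its ratio in cycling cells was 5.72. Igfbp3 had 4 and 134 UMIs (3.15). Both are also expressed in the other kept cells, and with no limit on Dcn, Lum and Pdgfra their ratios were 0.10 and 0.88. The receptor gene Egfr was at 95.7 and 20.8 CPM (-2.20) and the lymphatic growth factor gene Vegfc at 57.2 and 8.31 CPM (-2.78). Igfbp4, more abundant than any of these, was at 1332 and 872 CPM (-0.61). The list of 8 measured genes had 2 higher and 2 lower, against 4.3% and 4.22% of all genes, and a median of -0.64.

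Of the 12 higher genes named for their intervals, Ube2cbp (3.60, 2.35 to 5.23), Dlc1 (3.51, 2.12 to 5.40) and Basp1 (2.97, 2.03 to 4.12) had like ratios in cycling cells (3.55, 3.15 and 3.04). Basp1 encodes a membrane-bound protein of growing neurites. They had a UMI in 24, 56 and 56 of 171 TSK cells and in 3 of 32 WT cells each. After thinning, Dlc1 was in 22.5% of TSK members and 2.67% of blood-derived cells and Ube2cbp in 10.9% and 1%, while Basp1 was in 21.7% and 71.0%. Spry1, an inhibitor of receptor tyrosine kinase signalling, had 3 and 105 UMIs (3.21, 1.62 to 5.51) and a cycling ratio of 0.84. Gstm5, a glutathione transferase, had 3 and 99 UMIs (3.13, 1.54 to 5.43). Mpp7, a polarity scaffold, was at 2.99 and 9330188P03Rik, a non-coding RNA, at 2.71. Pf4 (4.13) and Mpp7 were each in 12.3% of thinned TSK members and in 45.3% and 65.0% of the blood-derived cells. For Pf4, Mpp7 and Basp1 the share of members with a UMI was thus below that of the blood-derived cells.

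Of the 12 lower genes, several rested on 1 WT cell, with 92.9% of the WT UMIs of Mbp (-6.14), 83.8% of Frmd5 (-4.81), 85.9% of Rundc3b (-3.38), 91.4% of Gm26787 (-3.24), 65.5% of AA467197 (-2.86) and 59.4% of Rras2 (-2.75) in the highest cell. C3, the central complement component, was spread further: 67.2 CPM in 12 of 32 WT cells and 4.16 CPM in 10 of 171 TSK cells (-4.01, -5.11 to -3.05), with 38.3% in the highest WT cell. In cycling cells C3 was at 94.7 and 1.40 CPM (-6.08), and in the other kept cells, where it was far more abundant, at 1079 and 478 CPM (-1.17). With 5000 UMIs per cell C3 was in 30.8% of WT and 1.45% of TSK members, against 30.6% and 41.0% of blood-derived cells. Azin2, a regulator of polyamine synthesis, was at 42.9 and 4.53 CPM (-3.24) and at -2.88 in cycling cells. Over all 24 named genes, 20 had the same sign in cycling cells, which come from the same 2 libraries. The share of all measured genes with the same sign is not given here, so the count has no reference. The median log2 ratio of all genes was above 0 in both classes, at 0.14 and 0.24.

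Cdk8 was lower together with a ribosomal RNA gene. Cdk8, a kinase of the Mediator complex, was at 5902 CPM in WT and 1309 CPM in TSK (-2.17, -2.24 to -2.11). It moved from cell to cell with Gm42418, a non-coding RNA that overlaps ribosomal RNA sequence and took 15.2% of all UMIs in WT and 6.31% in TSK members. Across cells, the rank correlation with Gm42418 was 0.88 in both libraries for Cdk8 (32 and 171 cells of shared libraries). For Mt1 it was -0.12 and -0.10 and for B2m 0.37 and -0.15. The share of Gm42418 itself had a rank correlation of -0.63 and -0.84 with the UMIs of a cell. The part of ribosomal sequence in the values of Cdk8 was not tested.

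Several of the remaining lists had members at 2-fold, against 4.3% of all genes higher and 4.22% lower. Of 26 genes of glycolysis and hypoxia, 3 were 2-fold higher, Hk2, the hexokinase at the head of glycolysis (201 and 415 CPM, 1.04), Adm (1.91) and Ankrd37 (1.92), and none lower, with a median of 0.21 and Gapdh at 0.01. Of 23 genes of ERK feedback and targets, Spry1 and Spry2 (1.18) were higher and Plaur (-1.47, 80.6% in 1 WT cell) lower, while the target genes Dusp6 (0.36) and Hmga2 (-0.18) were not. Of 18 genes of the unfolded protein and amino acid responses, Ddit3 (1.56), Ddit4 (1.65) and the cystine carrier gene Slc7a11 (1.31) were higher and the amino acid carrier gene Slc7a5 (-1.81) lower, with a median of 0.17. With no limit on Dcn, Lum and Pdgfra, Spry2 (-0.049), Ddit3 (-0.010) and Slc7a11 (-0.11) were near 0. Of 5 measured genes of p53 and its targets, Bax (1.27) and Btg2 (1.28) were higher, while Cdkn1a (0.12) and Mdm2 (-0.96) were not 2-fold different. Imprinted genes had 3 higher of 7 (H19 at 1.24, Peg10 at 1.63 and Dlk1 at 1.20) and 1 lower (Mest, -1.19, 90.9% in 1 WT cell), with a median of 0.12. For H19, a single cell held 90.2% of the WT UMIs and another 43.2% of the TSK UMIs.

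The 2-fold differences among chemokine and cytokine genes rested largely on single cells. Of all genes, 4.3% were 2-fold higher and 4.22% lower. Of 10 measured, Ccl5 (3.83), Tslp (2.78) and Tgfb2 (1.22) were higher and Ccl2 (178 and 21 UMIs), Ccl7 and Csf1 (-2.64) lower, but 79.5% of the TSK UMIs of Ccl5, 68.3% of those of Tslp and 98.3% of the WT UMIs of Ccl2 were in 1 cell, and all 36 WT UMIs of Ccl7 were in 1 cell, while TSK had none (at least 45.4-fold lower against a floor of 3 counts over the group). Tgfb2 had 66.7% of 18 WT UMIs in 1 cell, but its TSK UMIs were in 46 cells, and Csf1 had 64.3% of 28 WT UMIs in 1 cell. Mif, the most abundant cytokine gene and found in 31 of 32 and 168 of 171 cells, was at 2042 and 2305 CPM (0.18, 0.09 to 0.26). Mesenchymal genes (13), integrins (6), galectins (4), immune checkpoint ligands (5) and cell cycle inhibitors (7) had no member at 2-fold, with medians of -0.12, 0.37, -0.36, -0.17 and 0.54. Basement membrane genes (8), genes of sterol and fatty acid synthesis (15), apoptosis (9) and TGF-beta (14) had 1, 2, 1 and 0 higher and 0, 0, 0 and 1 lower members, with medians of 0.20, 0.24, 0.28 and -0.31.

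**Figure D5:**
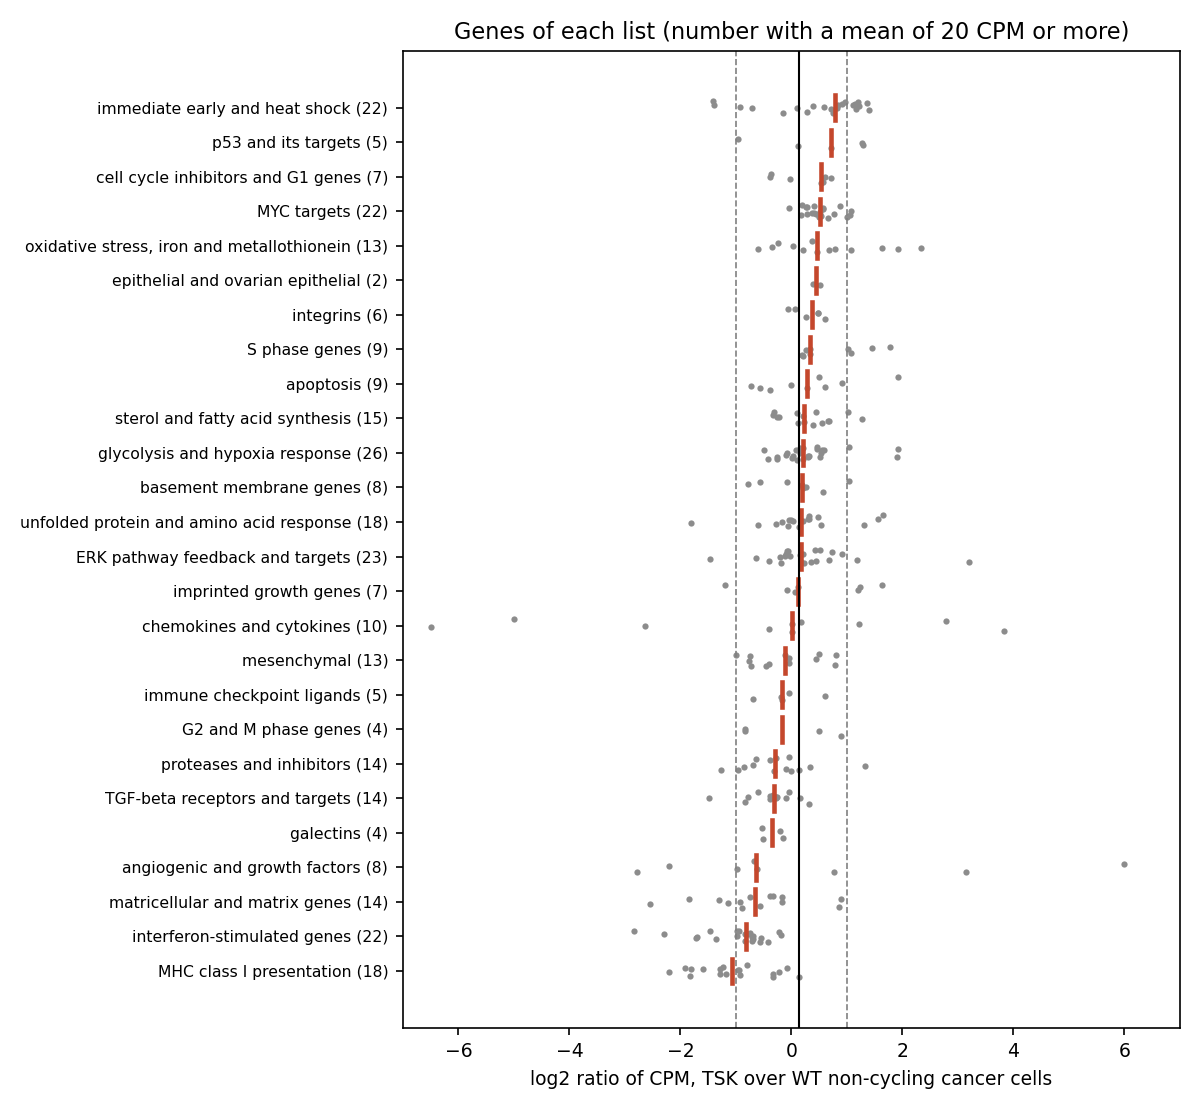
Log2 ratio of CPM (TSK over WT) of the measured genes of 26 lists in non-cycling cancer cells, 1 point per gene, with red bars at list medians; the solid line is the median of all genes (0.14) and dashed lines mark 2-fold. MHC class I presentation has the lowest median (-1.07) and immediate early and heat shock genes the highest (0.79); Ccl7, with no UMI in TSK, is drawn at the left edge of the chemokine row.

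The genes that varied most between members were in part shared by the libraries. With 5000 UMIs per cell, 6 genes were among the 20 with the highest ratio of variance to mean in WT and in TSK. They were Gm42418, the nuclear RNA gene Malat1, Spp1, Cmss1, Mgp, an inhibitor of calcification, and S100a6. Across members, Cmss1 had a rank correlation with Gm42418 of 0.90 in WT and 0.93 in TSK. The part of ribosomal sequence in the values of Cmss1 was not tested. Spp1 reached 186 UMIs in the highest WT cell and 183 in the highest TSK cell, with medians of 19 and 16, and its ratio of variance to mean was 63.2 in WT and 33.6 in TSK. The other 14 genes of each library's 20 differed. Ccl5 and Fap, 2nd and 5th in TSK, had too few UMIs to be ranked in WT, and Map4k4, 5th in WT, was 444th in TSK.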

How the data were processed

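The study sequenced 1 library of pooled subcutaneous SO tumors per genotype with the 10x Genomics 3′ protocol. Per the file headers, the counts deposited by the authors are raw UMI counts per gene and barcode from Cell Ranger 7.1.0; the submitters' processing notes name 7.1.1 and mm10. Nothing was normalized in them, and doublets were not removed here. The WT library held 21225411 UMIs in 2332 barcodes and the TSK library 48296765 in 4436. The 263 barcodes in both libraries (251 and 255 after the cell limits) were left out.

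UMIs were summed over the cells of each class and scaled to CPM with Python 3.11.15, numpy 2.4.6, scipy 1.17.1 and pandas 2.3.3, and figures were drawn with matplotlib 3.10.9. A gene was measured at a mean of 20 CPM over both libraries, the 11 rule genes excepted, and was called at a log2 ratio of 1 or -1. Named genes were the 12 in each direction that were called, had a UMI in at least 10% of the cells of the higher library and ranked highest by the interval bound nearest to 0, with list and label genes; a few of them are not reported here. The members and lists were chosen with earlier results of these data known. Shares of cells with a UMI were compared after thinning to 5000 UMIs (26 WT and 138 TSK members), which left out 6 and 33 shallower members. Ratio intervals were tested on simulated data. Gene coordinates are from GENCODE M21 (GRCm38), which held 99.6% of the gene identifiers, and promoters from RefSeq (GRCm38.p6).

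Alternatives were the study's upper limits, 20% mitochondrial UMIs, shared barcodes kept, stricter marker limits, a cycling limit per 10000 UMIs, the rule on thinned cells, another denominator, median scaling, equal weight per cell, deep cells alone and other minimum levels. Chosen after seeing the data were no limit on Dcn, Lum and Pdgfra, leaving out the highest cell of each gene, and leaving Gm42418 out of the totals.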

Additional observations from a re-analysis of the deposited data

Results flagged for a closer look

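Of the 24 genes named for their intervals, 3 had a ratio in cycling cancer cells of the opposite sign to that in non-cycling ones, with a counting interval that leaves out 0; over animals these differences were not tested. Mt1 had a log2 ratio of -0.25 (-0.34 to -0.16) in cycling and 2.34 in non-cycling cells. In WT, 784 of the 1121 Mt1 UMIs of cycling cells (69.9%) came from 1 of 15 cells, and without the highest cell of each library the cycling ratio was 1.33 (1.18 to 1.49), in the direction of the non-cycling cells. Rundc3b was at 1.21 (0.22 to 2.44) in cycling and -3.38 in non-cycling cells, where 85 of 99 WT UMIs were in 1 cell; without the highest cells the non-cycling ratio was -0.89 (-1.84 to 0.14). Gm26787 was at 1.91 (0.67 to 3.54) and -3.24, with 32 of 35 non-cycling WT UMIs in 1 cell and a non-cycling ratio of 0.00 (-1.89 to 2.47) without the highest cells.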

How the results depend on the processing

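No paired analysis was possible because each genotype has 1 library and no replicate. The log2 ratio of the share among all cells ranged from 0.91 to 1.64 over the alternatives, and that of the share among cancer cells from -1.53 to -0.29, the last with the rule on cells thinned to 2000 UMIs, where 37 of 38 WT cells were under the cycling limit. Against 236 genes higher and 232 lower, the counts were 1260 and 667 under the study's limits, 107 and 140 with no limit on Dcn, Lum and Pdgfra, 448 and 90 without the highest cell of each gene, 34 and 47 at a mean of 100 CPM and 4944 and 2236 with no minimum. Median scaling gave 145 higher and 297 lower, equal weight per cell 546 and 278, and leaving out Gm42418 164 and 330. Leaving out the highest cell removes more from the 32 WT than from the 171 TSK cells. The median of MHC class I genes stayed between -1.38 and -1.03, that of interferon-stimulated genes between -1.31 and -0.24 and that of immediate early genes between 0.46 and 0.94, while the G2 and M phase median changed sign in 5 of 11 alternatives. Of 3609 values of 335 named and listed genes under alternatives, 3037 stayed inside the counting interval of the reported ratio, 554 moved outside it in the same direction or uncalled, and 18 changed the sign of a called ratio. Ccl7, with no UMI in TSK, was left out. Under the study's limits these were Mest (1.76), Plaur (1.10), Cxcl10 (2.62), Col3a1 (0.16), Jund (-0.76), Dnajb1 (-0.29) and Klf4 (-0.53). With no limit on Dcn, Lum and Pdgfra they were Mest (0.53), Spry2 (-0.049), Ifit1 (0.075), Tslp (-1.08), Ddit3 (-0.010) and Slc7a11 (-0.11). Without the highest cells they were Gm26787 (0.0040), Mest (1.98), Plaur (0.67), Ifit1 (0.68) and Usp18 (0.31). Apart from the removal of single cells, the cause was not tested. Depth limits the WT values most, which rest on 699877 UMIs.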
